A study of Mus musculus with 53 samples.

Results

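The genes described here are 5 nuclear receptors for steroid hormones and 3 genes that glucocorticoids induce in many tissues, measured in 2 nuclei of the mouse hypothalamus. They were chosen by symbol, as 8 genes of the 53379 Ensembl genes counted, and all 8 were matched to 1 identifier each. In GENCODE vM21 (GRCm38), Esr1 (ENSMUSG00000019768) lies on chromosome 10 from 4611593 to 5005614, plus strand, and Fkbp5 (ENSMUSG00000024222) on chromosome 17 from 28399094 to 28517527, minus strand. Sgk1 (ENSMUSG00000019970) lies on chromosome 10 from 21882184 to 21999903, plus strand, and Esr2 (ENSMUSG00000021055) on chromosome 12 from 76120419 to 76177259, minus strand. The receptors are Nr3c1, the glucocorticoid receptor, Nr3c2, the mineralocorticoid receptor, Esr1 and Esr2, the oestrogen receptors alpha and beta, and Pgr, the progesterone receptor. The targets are Fkbp5, a co-chaperone that lowers the affinity of the glucocorticoid receptor for its hormone, Sgk1, a serine/threonine kinase, and Tsc22d3, the anti-inflammatory protein known as GILZ.

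Steroid receptors wait in complexes with heat shock proteins, bind their hormone and then act on DNA as transcription factors. In the paraventricular nucleus (PVN) the glucocorticoid receptor takes part in the negative feedback of corticosterone on the stress axis, and Esr2 is known to be expressed in PVN neurons. In the arcuate nucleus (ARC) and the adjoining ventromedial hypothalamus, Esr1 and Pgr are known to mark neurons that control reproduction and energy balance.

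Total RNA was sequenced from laser-captured PVN and ARC of C57BL/6 mice labelled as adult, for which the protocol, written for males, gives 13 to 14 weeks of age. The mice were Nnat+/+ or Nnat+/-p, the latter carrying a null allele of the imprinted gene Nnat inherited from the father. The data hold 53 libraries, of which 49 were used and 4 were left out. They make 3 tables that were each analysed on their own, and nucleus, sex and sequencing pool cannot be told apart between them.

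In the male PVN on chow there were 3 libraries of Nnat+/+ mice and, among Nnat+/-p mice, 3 of non-obese and 4 of obese ones, with, on a high-fat diet (HFD), 6 Nnat+/+ and 3 Nnat+/-p libraries. In the male ARC there were 2, 4 and 4 libraries of the same groups on chow, and 6 Nnat+/+ and 4 Nnat+/-p libraries on HFD. The female PVN was studied on chow, with 4 Nnat+/+, 3 non-obese and 3 obese Nnat+/-p libraries. Obese Nnat+/-p males on chow weighed 38.8 to 46.5 g and non-obese ones 27.4 to 34.3 g. Nnat+/+ males weighed 31.4 to 33.5 g on chow and 37.4 to 43.9 g on HFD, so diet and body weight cannot be told apart in them. Replicates are labelled as separate samples, and their numbers are those of the labels, from 1 to 53. In males, 15 PVN libraries share a labelled body weight with 1 ARC library of the same group and may come from the same mouse. On HFD, replicates 24 (PVN, Nnat+/+) and 51 (ARC, Nnat+/-p) also share a weight, though their genotype labels differ. The same holds for replicates 30 (PVN, Nnat+/-p) and 44 (ARC, Nnat+/+). An equal weight therefore does not by itself show that libraries come from 1 mouse. Replicates 39 and 40, both non-obese Nnat+/-p ARC libraries, share a weight of 34.3 g and may also be 1 mouse. Laser capture takes whole tissue, so fewer cells of a type and less RNA per cell cannot be told apart.

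Total counts per library ran from 2268021 to 8560199 in the male PVN, from 1479953 to 18058097 in the ARC and from 6219365 to 30228973 in the female PVN. Levels are given in CPM, the count of a gene relative to the TMM-scaled total of its library. Nnat itself ranged from 231 to 531 CPM in the 21 Nnat+/+ libraries, and the 28 of Nnat+/-p mice held 0.268 to 17.2 CPM. In the male PVN, the summed level of 5 PVN markers (Sim1, Avp, Oxt, Crh and Trh) was 529 to 2125 CPM in 17 libraries. Replicate 15, labelled chow Nnat+/+ PVN, stood apart at 10.9 CPM, and it held Pomc at 109.5 CPM, Nr5a1 at 61.7 CPM and Fezf1 at 56.6 CPM, which are markers of the ARC and the ventromedial hypothalamus. Replicate 24, labelled HFD Nnat+/+ PVN, had 156.6 CPM of the PVN markers, with Avp at 0.933 CPM and Oxt at 1.31 CPM. Its other PVN markers were Sim1 at 16.6 CPM, Crh at 22.4 CPM and Trh at 115.3 CPM. In the ARC, replicate 43, labelled non-obese Nnat+/-p, had 11.9 CPM of 5 ARC markers against 42.4 to 564 CPM in the other 19 libraries, and Pmch, a lateral hypothalamic marker, at 170.2 CPM. Values of Nr3c2, Esr1, Esr2 and Fkbp5 that rest on these libraries are given with and without them.

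Hormone response elements are the DNA letters that such receptors bind, and they are shown here because Fkbp5, Sgk1 and Tsc22d3 were chosen as glucocorticoid targets. The windows searched ran from 250 bases before to 50 bases after each RefSeq start site (GRCm38), on both strands, with 15 windows for 7 of the 8 genes. The glucocorticoid response element was searched as the full palindrome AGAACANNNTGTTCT and the oestrogen response element as GGTCANNNTGACC. The E-box, CACGTG, was searched as well and is not a hormone response element. The glucocorticoid response element was found in 1 of the 15 windows, that of 1 Sgk1 start site at chr10:21993640-21993939 on the plus strand. There it begins 189 bases before the start. It was found in 3 of 32851 promoters of the same length, or 0.00913%. The oestrogen response element was found in none of the 15 windows and in 0.07% of all promoters. The E-box was found in 3 of the 15, in Sgk1, Esr2 and Fkbp5, and in 7.15% of all promoters. The Fkbp5 window held no glucocorticoid response element. In the Sgk1 window below capitals mark the glucocorticoid response element, and in the Fkbp5 window, at chr17:28486100-28486399 on the minus strand, they mark the E-box, each read 5′ to 3′ along the gene.
Sgk1: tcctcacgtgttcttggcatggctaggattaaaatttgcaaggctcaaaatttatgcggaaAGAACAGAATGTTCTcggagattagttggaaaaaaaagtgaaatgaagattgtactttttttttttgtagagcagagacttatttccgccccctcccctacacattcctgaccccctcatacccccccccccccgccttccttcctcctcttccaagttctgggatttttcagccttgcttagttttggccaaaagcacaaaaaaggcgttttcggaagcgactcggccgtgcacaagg
Fkbp5: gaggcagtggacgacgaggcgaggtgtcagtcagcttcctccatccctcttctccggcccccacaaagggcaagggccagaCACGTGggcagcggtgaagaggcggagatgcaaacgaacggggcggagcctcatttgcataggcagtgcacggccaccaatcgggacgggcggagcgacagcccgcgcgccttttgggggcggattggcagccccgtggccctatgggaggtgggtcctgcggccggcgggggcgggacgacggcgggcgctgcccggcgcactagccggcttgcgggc
A match is a description of letters, and the absence of one says only that these letters are not in these windows.

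Nr3c1 was the most abundant of the 8 genes per kb of exon in all 3 tables, and it was above the next gene, Tsc22d3, in 19 of 19 male PVN, 10 of 10 female PVN and 20 of 20 ARC libraries. Its median level per exon length was 15.4 CPM per kb for male PVN, 17.4 for female PVN and 12.2 for ARC. The median of Tsc22d3 was 5.69, 7.30 and 4.79 CPM per kb in the same order. In the male PVN Nr3c2 came next, at 3.89 CPM per kb, and it was above Pgr in 17 of 19 libraries. The neighbours that followed were not ordered alike across libraries, since Pgr was above Sgk1 in 10 of 19 and Sgk1 above Fkbp5 in 8 of 19. In the ARC Pgr came before Nr3c2, at 3.37 against 2.41 CPM per kb, and was higher in 16 of 20 libraries. Esr2 was last in the ARC at 0.0807 CPM per kb, under Esr1 in 20 of 20 libraries.

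**Figure D1:**
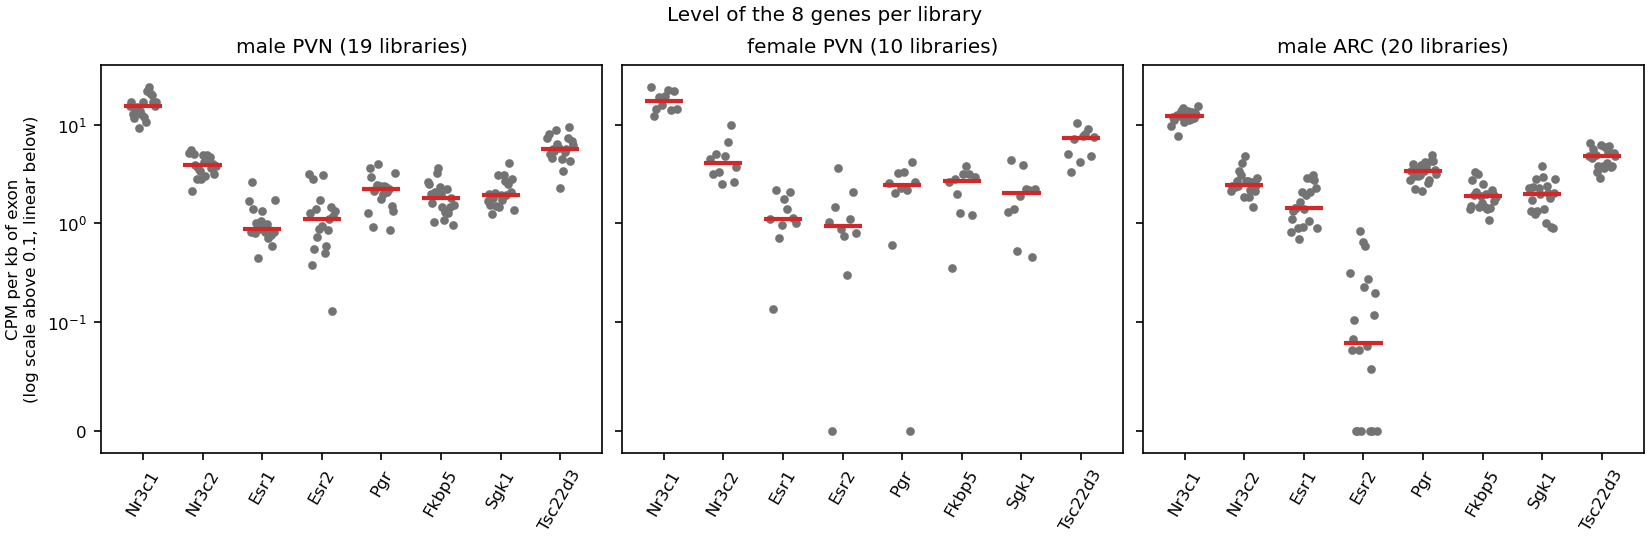
Level of each of the 8 genes in CPM per kb of exon (vertical axis, logarithmic above 0.1 and linear below) in the male PVN, female PVN and male ARC. Each grey point is 1 library and each red line a median; Nr3c1 is at the top in every panel, and Esr2 falls to 0.0807 CPM per kb in the ARC.

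Among the corticosteroid receptors, Nr3c1 ranged from 71.3 to 184.5 CPM in the male PVN, with a median of 118.7 CPM. In the female PVN its range was 93.4 to 184.3 CPM, and in the ARC it was 59.4 to 119.4 CPM with a median of 93.4 CPM. No ARC library was above the highest PVN library, and 8 of 19 male PVN libraries were above every ARC library. By group, male PVN Nr3c1 was 115.7 ± 15.8 CPM (SD, n = 3) in chow Nnat+/+, 105.6 ± 30.7 (n = 3) in non-obese and 99.9 ± 8.80 (n = 4) in obese Nnat+/-p mice. On HFD it was 140.0 ± 42.5 CPM (SD, n = 6) in Nnat+/+ and 127.0 ± 6.83 (n = 3) in Nnat+/-p mice. These group means lay within the spread of the libraries. In the ARC the group means ran from 82.9 ± 16.9 CPM (SD, n = 4) for non-obese chow to 101.3 ± 12.6 (n = 4) for HFD Nnat+/-p mice.

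Nr3c2, which binds both aldosterone and corticosterone, had a median of 25.2 CPM in male and 26.3 CPM in female PVN, against 15.6 CPM in ARC libraries. Replicate 15 was the lowest male PVN library, at 13.6 CPM. Without replicates 15 and 24, 15 of 20 ARC libraries were below every male PVN library, against 3 of 20 with them. The female PVN was the most variable, since the 3 non-obese Nnat+/-p libraries held 43.5, 63.5 and 16.7 CPM. In the ARC, replicate 44 of HFD Nnat+/+ was highest, at 31.2 CPM.

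Among the ovarian steroid receptors, Esr2 showed the widest gap between the nuclei of males. It ranged from 0.429 to 10.7 CPM in the male PVN, with a median of 3.70 CPM, and from 0 to 2.82 CPM in the ARC, with a median of 0.272 CPM. Its median was 13.6 times as high in the PVN, or 14.7 times without replicates 15 and 24. All 19 PVN libraries were above the ARC median and 13 of 19 were above every ARC library. Among the 15 pairs of libraries with 1 weight, the PVN library was the higher in 15. The ARC values rest on few reads, since 15 of 20 libraries had 3 or fewer Esr2 counts and 6 had 0. Differences of Esr2 between groups of the ARC were therefore not detectable at this depth. The 2 highest ARC libraries were replicate 41 at 2.82 CPM (13 counts) and replicate 43 at 2.14 CPM (16 counts). In the female PVN Esr2 ranged from 0 to 12.1 CPM.

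**Figure D2:**
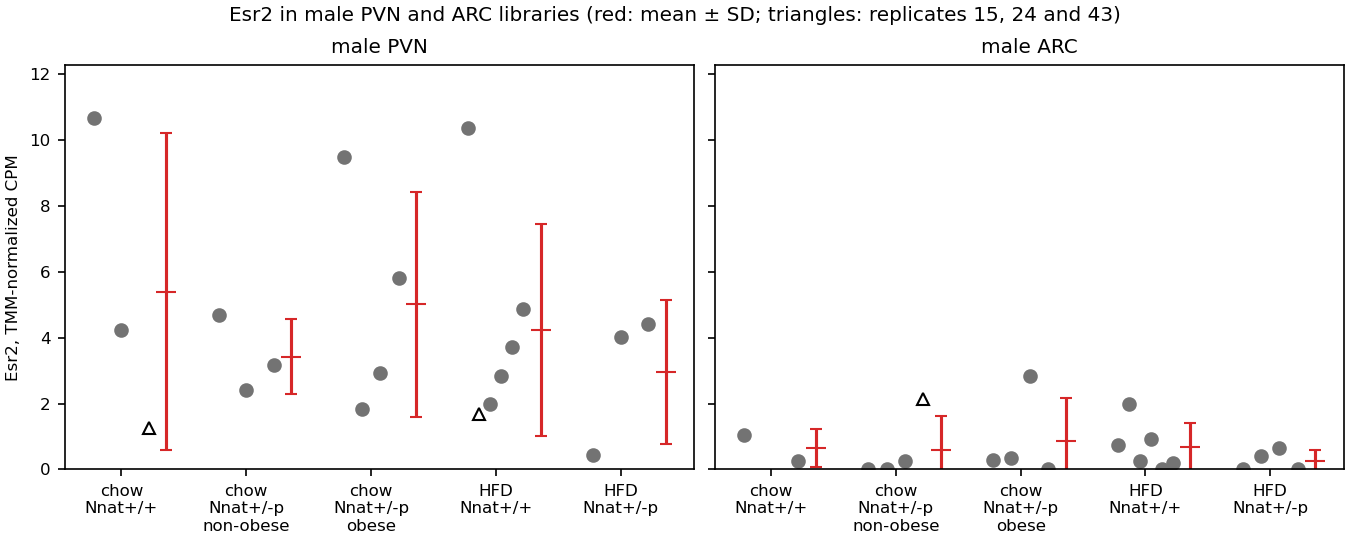
Esr2 in TMM-normalized CPM (vertical axis) by group in male PVN and male ARC libraries. Points are libraries, triangles are replicates 15, 24 and 43, and red marks are means with SD; 13 of 19 PVN libraries lie above every ARC library.

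Esr1 ran the other way in the medians, at 12.0 CPM in the male PVN and 19.5 CPM in the ARC. Of the 20 ARC libraries 18 were above the PVN median, and 4 were above every PVN library, or 8 once replicates 15 and 24 were left out. Pgr had medians of 19.0 CPM in the male PVN and 28.8 CPM in the ARC, with 18 of 20 ARC libraries above the PVN median. In the 15 pairs with 1 weight, the ARC library was the higher in 12 for Esr1 and in 12 for Pgr. The female PVN had medians of 15.2 CPM for Esr1 and 20.8 CPM for Pgr. In it, Pgr was 0 CPM in replicate 10, a non-obese Nnat+/-p library in which Nr3c2 was at its highest, while replicate 11 of the same group held 35.9 CPM.

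The 3 targets had closer medians in the nuclei of males. Fkbp5 was at 17.2 CPM in the male PVN and 17.7 CPM in the ARC, Sgk1 at 9.55 and 9.69 CPM, and Tsc22d3 at 24.7 and 20.8 CPM. In the female PVN the medians were 25.5 CPM for Fkbp5, 9.94 CPM for Sgk1 and 31.7 CPM for Tsc22d3. Sgk1 was the most variable of the 3 there, from 2.23 to 21.3 CPM.

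The first question of the design was whether loss of paternal Nnat, with or without obesity, went with other levels of these genes on chow. Across the 15 comparisons and 8 genes, 120 tests in all, edgeR's quasi-likelihood test called no gene at an adjusted p under 0.25, and 6 had an unadjusted p under 0.05. Pooled over all genes, 3.96% of tests met the unadjusted criterion and 0.191% were called. The 6 fell on 2 genes, Esr1 and Fkbp5. DESeq2 called 1 of the 120, Esr1 between the diets in the male PVN, in a fit that kept replicate 15. The smallest adjusted p by edgeR was 0.307. Many comparisons within a table share libraries, since each group enters more than 1 of them.

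In the male PVN on chow, 0 of 8 genes were called in obese against Nnat+/+ mice, beside 0.0256% of all genes tested, and 0 had an unadjusted p under 0.05, beside 3.52%. In non-obese against Nnat+/+ mice the 8 genes again gave 0 and 0, beside 0.0128% called and 2.56%. For the weight classes of Nnat+/-p mice against each other they gave 0 and 0, beside 0% called and 1.66%. Fold changes on the log2 scale ran from -0.73 for Esr1 to 0.14 for Sgk1 in obese mice, and from -0.88 for Esr1 to 0.08 for Sgk1 in non-obese mice. Esr1 in the chow Nnat+/+ libraries was 23.1, 11.0 and 36.1 CPM, and the highest was replicate 15. Without it the log2 fold change of Esr1 was -0.26 in obese and -0.41 in non-obese mice. With it, the Nnat+/+ values overlap with the 11.0 to 18.8 CPM of the obese and the 6.04 to 18.1 CPM of the non-obese mice.

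In the female PVN no gene was called and none had an unadjusted p under 0.05 in any of the 3 comparisons. The shares of all genes tested were 0.0129% called and 3.18% for obese against Nnat+/+, 0.00646% and 4% for non-obese against Nnat+/+, and 0% and 3.06% for obese against non-obese mice. The range of log2 fold changes was widest between obese and non-obese mice, from -0.80 for Nr3c2 to 0.72 for Sgk1. Sgk1 was 9.24, 18.9 and 10.9 CPM in the obese and 10.8, 10.6 and 2.23 CPM in the non-obese mice, so that the groups overlapped.

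In the male ARC on chow, Fkbp5 was the gene with the smallest p when non-obese Nnat+/-p libraries were set against Nnat+/+. Its level was 13.2 and 14.2 CPM in the Nnat+/+ libraries and 31.5, 19.4, 30.1 and 15.3 CPM in the non-obese ones, of which the last is replicate 43. All 4 non-obese libraries were above both Nnat+/+ libraries, though 19.4 and 30.1 CPM belong to replicates 39 and 40, which may be 1 mouse. The log2 fold change was 0.82 ± 0.37 (SE), with an adjusted p of 1.00 by edgeR's quasi-likelihood test, so the difference was not called. Without replicate 43 it was 1.00, and with replicates 39 and 40 summed into 1 library it was 0.85. The unadjusted criterion was met by 1 of 8 genes, beside 1.9% of all genes tested, and 0 of 8 were called, beside 0.0136%. The other 7 genes had log2 fold changes from -0.24 for Tsc22d3 to 0.35 for Sgk1.

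Between the weight classes of Nnat+/-p mice in the ARC, Esr1 had the smallest p. It was 18.3, 19.5, 22.6 and 28.0 CPM in the obese and 19.5, 12.2, 9.45 and 12.6 CPM in the non-obese libraries. Of the 4 obese libraries 2 were above every non-obese one. The log2 fold change was 0.71 ± 0.29 (SE), with an adjusted p of 0.999 by edgeR. It was 0.67 without replicate 43 and also 0.67 with replicates 39 and 40 summed. Again 1 of 8 genes met the unadjusted criterion, beside 4.25% of all genes, and 0 were called, beside 0.00682%. The 5 ARC markers summed to 109.9 to 145.2 CPM in the obese and 11.9 to 102.0 CPM in the non-obese libraries, and their part in the difference was not tested. For obese against Nnat+/+ mice, 0 of 8 genes met either criterion, beside 0.0205% called and 2.59% of all genes, and log2 fold changes ran from -0.43 for Tsc22d3 to 0.75 for Esr1.

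**Figure D3:**
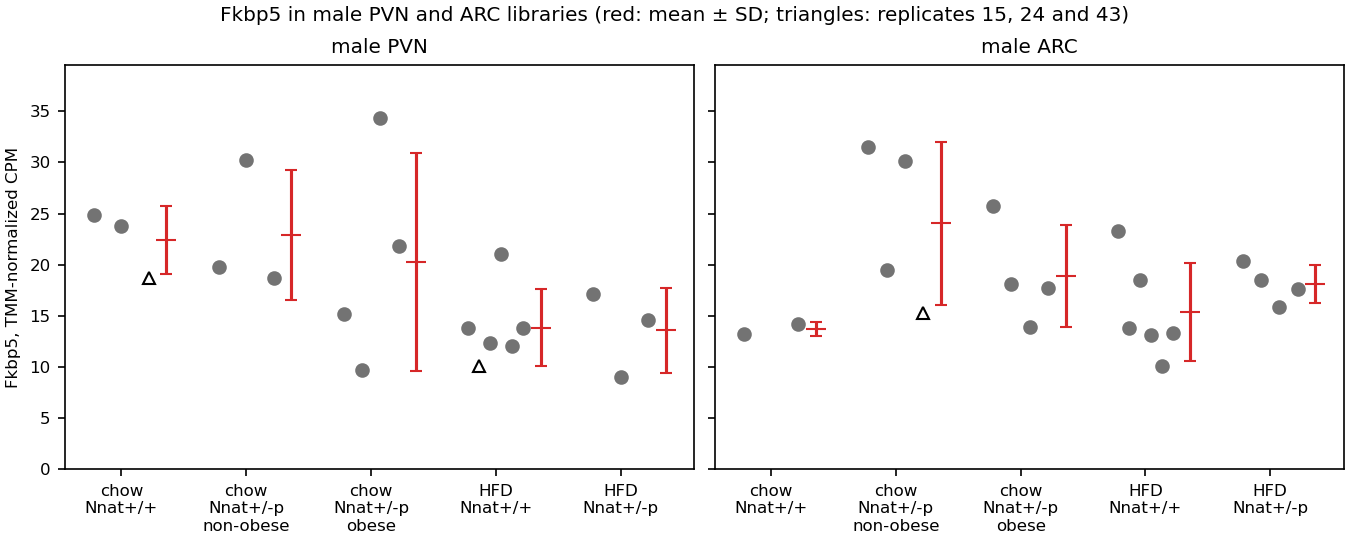
Fkbp5 in TMM-normalized CPM (vertical axis) by group in male PVN and male ARC libraries. Points are libraries, triangles are replicates 15, 24 and 43, and red marks are means with SD; the 2 chow Nnat+/+ ARC libraries, at 13.2 and 14.2 CPM, lie below the 4 non-obese Nnat+/-p ones.

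The next question was whether HFD changed these genes in Nnat+/+ mice. In the male PVN Esr1 was 23.1, 11.0 and 36.1 CPM on chow and 13.2, 11.2, 13.3, 9.62, 11.6 and 10.3 CPM on HFD. On HFD 2 of 6 libraries were below every chow library. The means were 23.4 ± 12.5 CPM (SD, n = 3) and 11.5 ± 1.48 (SD, n = 6), with a log2 fold change of -1.03 ± 0.37 (SE) and an adjusted p of 0.307 by edgeR, and the gene was not called. By DESeq2 the adjusted p was 0.247. The highest chow value belonged to replicate 15, whose 5 PVN markers summed to 10.9 CPM, while the other chow libraries held 1379 and 1200 CPM. Without replicate 15 the log2 fold change was -0.54 and the unadjusted p, by edgeR's fit over all genes, was 0.211. Without replicates 15 and 24 it was -0.53.

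Fkbp5 in the same comparison was 24.8, 23.8 and 18.7 CPM on chow and 13.8, 10.1, 12.4, 21.0, 12.1 and 13.8 CPM on HFD. Of 6 HFD libraries 5 were below every chow library, and replicate 26 was the exception. The log2 fold change was -0.70 ± 0.33 (SE), with an adjusted p of 0.473 by edgeR, and it was not called. Without replicates 15 and 24 it was -0.71. Thus 2 of 8 genes had an unadjusted p under 0.05, beside 10.3% of all genes tested, and 0 were called, beside 1.43%. The other 6 genes had log2 fold changes from -0.40 for Pgr to 0.61 for Sgk1.

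**Figure D4:**
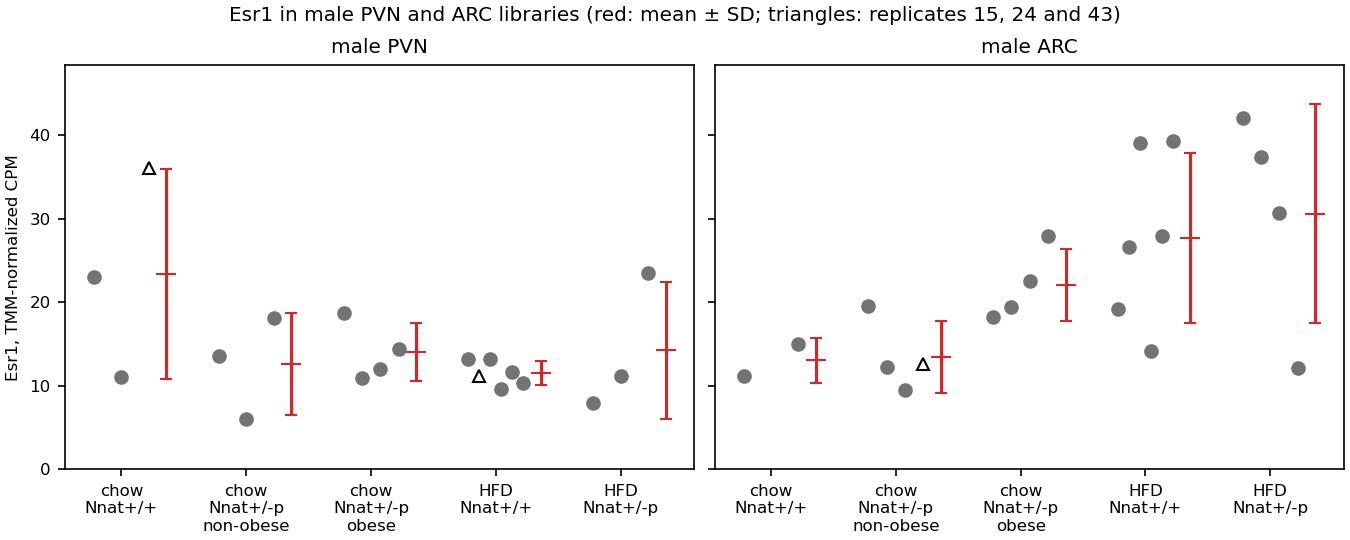
Esr1 in TMM-normalized CPM (vertical axis) by group in male PVN and male ARC libraries. Points are libraries, triangles are replicates 15, 24 and 43, and red marks are means with SD; replicate 15 is the highest PVN library at 36.1 CPM, and 5 of 6 HFD Nnat+/+ ARC libraries lie above both chow Nnat+/+ ones.

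In the ARC of Nnat+/+ mice Esr1 was 11.1 and 15.0 CPM on chow and 19.2, 26.6, 39.1, 14.2, 28.0 and 39.3 CPM on HFD. On HFD 5 of 6 libraries were above both chow libraries. The means were 13.1 ± 2.73 CPM (SD, n = 2) and 27.7 ± 10.2 (SD, n = 6), with a log2 fold change of 1.09 ± 0.40 (SE) and an adjusted p of 0.370 by edgeR, which was not called. It was the 1 gene of 8 with an unadjusted p under 0.05, beside 8.54% of all genes, and 0 were called, beside 1.16%. The other 7 genes had log2 fold changes from -0.25 for Tsc22d3 to 0.30 for Nr3c2.

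The sums of 3 marker lists differed between the diets in those ARC libraries. The 5 ARC markers (Agrp, Npy, Pomc, Ghrh and Tbx3) summed to 42.4 and 48.7 CPM on chow and 94.6 to 564 CPM on HFD, with none at 0. Tbx3 was 5.83 and 12.7 CPM on chow and 31.2 to 77.5 CPM on HFD. The paper that reported these data gives Npy and Tbx3 as upregulated in the ARC of obese mice, both HFD-fed Nnat+/+ and chow-fed Nnat+/-p. Whether the ARC marker sum follows diet or the tissue captured was not tested. The 2 ventromedial markers, Nr5a1 and Fezf1, summed to 46.6 and 81.2 CPM on chow and 2.09 to 37.0 CPM on HFD. The 5 oligodendrocyte markers summed to 652.0 and 747.0 CPM on chow and 225.9 to 557.0 CPM on HFD. These 3 sums did not overlap between the diets, while those of the other 7 marker lists did. The part of the 3 in the Esr1 difference was not tested.

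The last question was whether genotype acted alike on the diets. On HFD no gene of the 8 met either criterion between Nnat+/-p and Nnat+/+ mice, beside 0.00569% called and 0.99% of all genes in the PVN and 0.0127% and 4.54% in the ARC. In the PVN the log2 fold changes ran from -0.52 for Esr2 to 0.30 for Esr1, and in the ARC from -1.44 for Esr2, which rests on few counts, to 0.25 for Fkbp5. The genotype effect on HFD less that on chow had its smallest p for Esr1 in the PVN, at 1.11 ± 0.52 (SE) on the log2 scale, with an adjusted p of 1.00 by edgeR. It was the 1 gene of 8 with an unadjusted p under 0.05, beside 3.85% of all genes, and 0 were called, beside 0%. Without replicates 15 and 24 it was 0.63. Without replicate 31, the HFD Nnat+/-p library with 23.6 CPM of Esr1, it was 0.54. In the ARC 0 of 8 genes met either criterion, beside 0.0127% called and 3.83% of all genes, and the differences ran from -1.62 for Esr2, on few counts, to 0.20 for Tsc22d3.

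**Figure D5:**
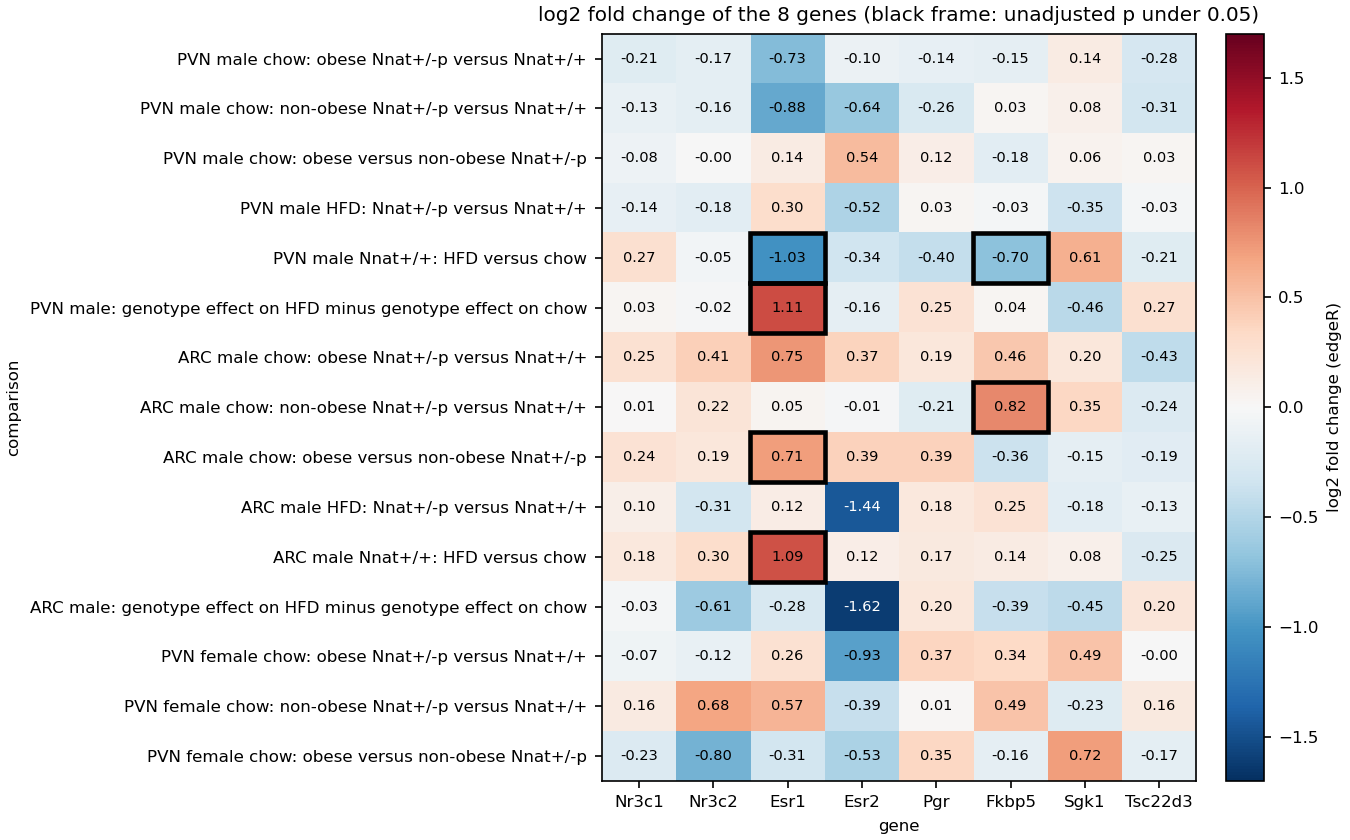
The log2 fold change by edgeR (colour and number) of each of the 8 genes (columns) in each of the 15 comparisons (rows). Black frames mark the 6 values with an unadjusted p under 0.05, 4 of Esr1 and 2 of Fkbp5; none had an adjusted p under 0.25.

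Other genes of steroid signalling were taken from 6 lists holding 63 genes with an identifier. None was called in any comparison. The share of tests of all genes with an unadjusted p under 0.05, pooled in the same way, was 3.96%. Summed over the 15 comparisons, the unadjusted p was under 0.05 in 4 of 150 tests for the chaperones of receptor complexes (3 higher, 1 lower) and in 2 of 135 for the coregulators (1 higher, 1 lower). It was so in 7 of 99 for the other steroid receptors (3 higher, 4 lower), in 2 of 105 for steroid metabolism (2 higher), in 13 of 324 for the other glucocorticoid targets (5 higher, 8 lower) and in 3 of 57 for targets of ovarian steroids (1 higher, 2 lower).

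Med1, a coactivator subunit of the Mediator complex, was 35.0, 63.0 and 36.1 CPM in the chow Nnat+/+ male PVN, the last in replicate 15. In obese Nnat+/-p mice it was 14.6 to 28.5 CPM. Its log2 fold change was -1.11 ± 0.34 (SE), with an adjusted p of 1.00 by edgeR, and was -1.23 without replicate 15. With each replicate left out it ran from -1.28 to -0.78.

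Cebpd, a transcription factor that glucocorticoids induce, was 0.304, 0.182, 0 and 0.0456 CPM in the female Nnat+/+ PVN, on 8 counts or fewer, and 20.4, 2.78 and 8.42 CPM in obese Nnat+/-p mice. The difference in Cebpd was not called, with an adjusted p of 1.00 by edgeR. For Mt2, a metallothionein, the genotype effect in the ARC was estimated as higher on HFD than on chow by 1.11 ± 0.38 (SE) on the log2 scale. The difference was not called, with an adjusted p of 1.00 by edgeR, and ran from 0.71 to 1.25 over 27 alternatives. The level of Mt2 was 26.0 and 26.5 CPM in the 2 chow Nnat+/+ libraries. It was 6.67 to 22.5 CPM in non-obese and 10.6 to 17.8 CPM in obese Nnat+/-p mice, 13.3 to 17.7 CPM in HFD Nnat+/+ and 13.8 to 20.9 CPM in HFD Nnat+/-p mice.

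Pairs of the 8 genes were compared across the libraries of each table on log2 CPM, 84 correlations in all. By permutation test (two-sided), 9 had an unadjusted p of Pearson's r under 0.05 and 0 had a Benjamini-Hochberg adjusted p under 0.05, the smallest being 0.143. In the ARC, Esr1 and Pgr had r = 0.63 (permutation p = 0.00313, adjusted 0.143) and rho = 0.61 (permutation p = 0.00481, adjusted 0.101) over 20 libraries. That r was 0.58 without the 2 libraries farthest from the median of Esr1, 0.31 within the 10 chow libraries and 0.72 within the 10 HFD libraries. By rank, 3 pairs had an adjusted p of 0.0462 by permutation test. They were Esr2 with Sgk1 (rho = -0.89, r = -0.75) and Nr3c2 with Fkbp5 (rho = 0.88, r = 0.64) in the female PVN and Nr3c1 with Nr3c2 in the ARC (rho = 0.67, r = 0.40). Their adjusted permutation p of r was 0.168, 0.454 and 0.461. Without the 2 libraries farthest from the median of the first gene, r was -0.68, 0.64 and 0.53. Of 28 pairs, 1 had r over 0 in all 3 tables, Nr3c2 with Fkbp5, and 3 had r under 0 in all 3.

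The genes most like each member were ranked by the smallest Pearson r over the 3 tables (19, 10 and 20 libraries) among 14047 genes tested in all of them. They were Sdf4, Kcna5 and Rlim for Nr3c1, with smallest r of 0.61, 0.59 and 0.58, and Ccnl2, Mcl1 and Gm45809 for Nr3c2, at 0.52, 0.51 and 0.50. For Esr1 they included Trappc4 and Pacsin3, at 0.45 and 0.44, and for Esr2 they were Elavl2, Ttc1 and Reln, at 0.50, 0.48 and 0.44. For Pgr they were Gpr162, Fxr2 and Dsg2, at 0.53, 0.52 and 0.51. Fkbp5 had the lowest values, at 0.39 for Ntn1, 0.36 for Nipsnap1 and 0.36 for Espl1. Sgk1 was most like Zswim3, Inpp4b and 5830417I10Rik, at 0.47, 0.45 and 0.45, and Tsc22d3 was most like Syde2, Ndufs3 and Nhlh2, at 0.51, 0.46 and 0.42. These values are a description of the best of many genes.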

How the data were processed

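RNA was measured in laser-captured PVN and ARC of male mice and in the PVN of female mice. The deposited tables hold the authors' read counts for each gene, whole and not normalized, from low-input stranded total RNA libraries. STAR 2.5.0a and GRCm38 are named in the submitters' processing notes. The counting tool, annotation release and strand setting are not given in the sources used here. Symbols, positions and exon lengths came from GENCODE vM21, and 53274 of 53379 identifiers matched.

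Groups, weights and replicate numbers came from the labels. Replicates 5, 7 and 35 were left out for their totals of 2302, 812815 and 271324 counts, and replicate 32 because its label names the ARC and its table is of the PVN. In R 4.3.3, edgeR 4.0.16 fitted each table on its own (chow groups in one fit, all male groups of the nucleus for comparisons with HFD), with filterByExpr (minimum count 10), TMM factors and its quasi-likelihood test. The Benjamini-Hochberg adjustment ran over all genes tested, and genes under 0.25 were called. Fold changes with SE are given where the unadjusted p was under 0.05. CPM are counts relative to the TMM-scaled library total, and correlations used log2 CPM with a prior count of 2. Permutation tests drew 100000 orders. List genes are named where they had the smallest p of their list and it was under 0.01. Results for some genes that these rules name are not reported here. The functions were tested on simulated data. The members and lists were chosen with earlier results of these data known.

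Alternatives were DESeq2 1.42.0, RLE factors, no filter, limma 3.58.1 voom, an adjusted p under 0.05, other sets of libraries and each replicate left out. Precision is limited by few libraries per group and, for Esr2, by depth. Where nothing says that samples are separate mice, p-values measure the spread between these samples only.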

Additional observations from a re-analysis of the deposited data

Results flagged for a closer look

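Of 56 sets of 4 to 6 libraries of a group and gene, 6 held a library far from the others by Dixon's test, where chance flags about 1 in 20 groups. In the male PVN of HFD Nnat+/+ mice, replicate 23 had Esr2 at 10.4 CPM against 1.68 to 4.86 CPM in the other 5 libraries. In the same group replicate 28 had Pgr at 7.29 CPM against 16.7 to 20.2 CPM, and replicate 26 had Fkbp5 at 21.0 CPM against 10.1 to 13.8 CPM. In the ARC of HFD Nnat+/+ mice, replicate 44 had Nr3c2 at 31.2 CPM against 12.0 to 17.5 CPM. Esr2 in the ARC was 2.82 CPM in replicate 41 (obese Nnat+/-p) against 0 to 0.348 CPM, and 2.14 CPM in replicate 43 (non-obese Nnat+/-p) against 0 to 0.249 CPM. Replicate 43 is the library with 11.9 CPM of the ARC markers, and Esr2 rested on few reads in the ARC.

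Among the libraries left out, levels without TMM factors were set against the range of the Nnat+/+ libraries of the table, with exact 95% Poisson intervals that cover counting error only. Replicate 32, in no group, had Sgk1 at 21.1 CPM (17.9 to 24.7) against at most 16.2 CPM. Replicate 35, labelled chow Nnat+/+ ARC, had Nr3c1 at 232 CPM (178.4 to 297.1) against at most 111.3 CPM, and Sgk1 at 59.0 CPM (33.7 to 95.8, on 16 counts) against at most 11.8 CPM. Its Pgr was lower, at 0 CPM (0 to 13.6) against at least 21.2 CPM. Replicate 7, labelled obese Nnat+/-p female PVN, had Nr3c1 at 8.61 CPM (3.46 to 17.7, on 7 counts) against at least 82.5 CPM. Its Nr3c2 was 0 CPM (0 to 4.54) against at least 17.8 CPM, and its Tsc22d3 1.23 CPM (0.0311 to 6.85) against at least 12.7 CPM. All members were low in that library, since each one but Nr3c1 had 1 count or 0. No gene was called for a difference of the genotype effect between diets, and in none did every library move one way in one nucleus or sex and the opposite way in another.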

How the results depend on the processing

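No paired analysis was possible because the replicate numbers run from 1 to 53 and no number is shared between groups; the weights that PVN and ARC libraries share pair no groups that were tested against each other. The count of the 8 genes called was 0 under 244 of 250 alternatives over the 15 comparisons. It was 1, Esr1, for HFD against chow in the Nnat+/+ PVN by DESeq2 and without the filter on low counts (total over 1), and ranged from 0 to 1 with each replicate left out (1 without replicate 14). Each of these PVN calls kept replicate 15, which stood apart in its PVN markers. The count was 1, Esr1, in the Nnat+/+ ARC without that filter, with all labelled libraries and with only the groups compared. The set of all labelled libraries there adds replicate 35, a chow Nnat+/+ library of 271324 counts with 0 counts of Esr1. Of 101 alternative values for the 6 fold changes given, none changed direction and 6 passed the threshold. With each replicate left out, the genotype effect of Esr1 in the PVN differed between diets by 0.54 to 1.44 on the log2 scale, the former without replicate 31. Esr1 between the diets ranged from -1.34 to -0.54 in the PVN, the latter without replicate 15, and from 0.88 to 1.35 in the ARC, and between the weight classes from 0.56 to 0.95. Fkbp5 ranged from -0.86 to -0.59 in the PVN and from 0.67 to 1.00 in the ARC. Levels without TMM factors stayed within 1 SD in 24 of 24 medians. The genes most like a member depended on the measure, since Spearman's rho kept at most 1 of 3. Cebpd in the female PVN was called under 2 of 13 alternatives. Depth limits Esr2 in the ARC, and 2 chow Nnat+/+ ARC libraries limit every comparison with them.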
